A study of Mus musculus with 12 samples.

Results

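The transcription factors that give the intestinal epithelium its identity were followed here as 10 named genes out of the 34245 in the count table: *Hnf4a*, *Hnf4g*, *Cdx1*, *Cdx2*, *Gata4*, *Gata6*, *Klf4*, *Klf5*, *Maf* and *Creb3l3*. They were chosen by name, and all 10 were found and passed the filter on low counts in each comparison. RNA was sequenced from stem cells (ISC) and villus enterocytes (AE) of the small intestine of male C57BL/6 mice that all carried the Lgr5-EGFP-IRES-creERT2 knock-in allele, with 3 libraries each of young ISC, aged ISC, young AE and aged AE. The young mice were about 8 months old and the aged mice about 27 months old. ISC were sorted from crypts as cells with high GFP, which the knock-in drives from the *Lgr5* locus. AE were sorted from villi as cells with high Epcam that lacked CD45 and CD31, a gate on epithelial cells and not on absorptive cells alone. The code at the head of 8 of the 12 sample titles points to another group than the words after it, so each column of counts was placed in the group written out in the name of the column itself.

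Stem cells at the crypt base divide and send daughters up the villus, where most become absorptive enterocytes. The HNF4 nuclear receptors, the caudal homeobox factors CDX1 and CDX2, and the zinc finger factors GATA4 and GATA6 are known to act together on intestinal enhancers and to hold the epithelium in its small intestinal state. KLF5 is known for promoting proliferation in the crypt and KLF4 for cell cycle exit and villus and goblet cell differentiation. CREB3L3 is a membrane-bound factor, released by proteolysis, that acts on lipoprotein genes, and MAF is a basic leucine zipper factor known from lens, lymphocytes, macrophages and villus enterocytes.

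Library totals lay between 11893817 and 26796461 counts in 11 libraries, and young AE replicate 3 held 110794420. Levels are given as CPM, counts scaled to the library total times a TMM factor estimated from genes that differ little. The sorted cells carried the markers of their labels: the summed level of 7 stem cell markers was between 5636 and 8038 CPM in ISC and between 74.5 and 593 in AE, and that of 12 enterocyte markers between 1381 and 8543 in ISC and between 64760 and 101640 in AE. Young ISC replicate 3 was the ISC library with 8543 CPM of enterocyte markers, against at most 4440 in the other 5. Young AE replicate 2 had the highest stem cell and proliferation marker sums among AE, 593 and 362 CPM. Goblet cell markers summed to between 1390 and 2235 CPM in ISC and between 28119 and 57009 in AE. At both ages 6 of 7 were called higher in AE by the test given below. Of all genes tested, 27.7% were called higher in young and 30% in aged mice. The remaining goblet marker was called lower in aged mice, as were 34.1% of all genes. Enteroendocrine markers summed to between 247 and 869 CPM in ISC and between 3138 and 11813 in AE. Paneth cell markers summed to between 545 and 1609.5 CPM in ISC and between 52.0 and 227 in AE, tuft cell markers to between 103 and 304 in ISC and between 236 and 750.3 in AE, and markers of stroma and endothelium to between 4.59 and 19.6 in all libraries. The part of these other cells in the results below was not tested, and in bulk samples fewer cells of a type cannot be told apart from less RNA per cell.

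The first question was how these factors differ between the stem cell and the enterocyte. A gene was called where edgeR's quasi-likelihood test gave a false discovery rate (FDR) under 0.05 after Benjamini-Hochberg adjustment over all genes tested. In young mice 4 of the 10 factors were called higher in AE than in ISC and 1 lower, beside 27.7% of all 16681 genes tested that were called higher and 25.4% that were called lower. The counts were again 4 higher and 1 lower in aged mice, beside 30% higher and 34.1% lower of 15855 genes. *Creb3l3*, *Maf*, *Klf4* and *Hnf4g* were the factors called higher, and *Cdx1* was the one called lower, at each age. The median log2 fold change of the 10 factors was 0.26 in young and 0.27 in aged mice, and that of all genes tested was 0.15 and -0.13. With so large a share of all genes called, the counts alone say little about the factors, which are described singly.

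**Figure D1:**
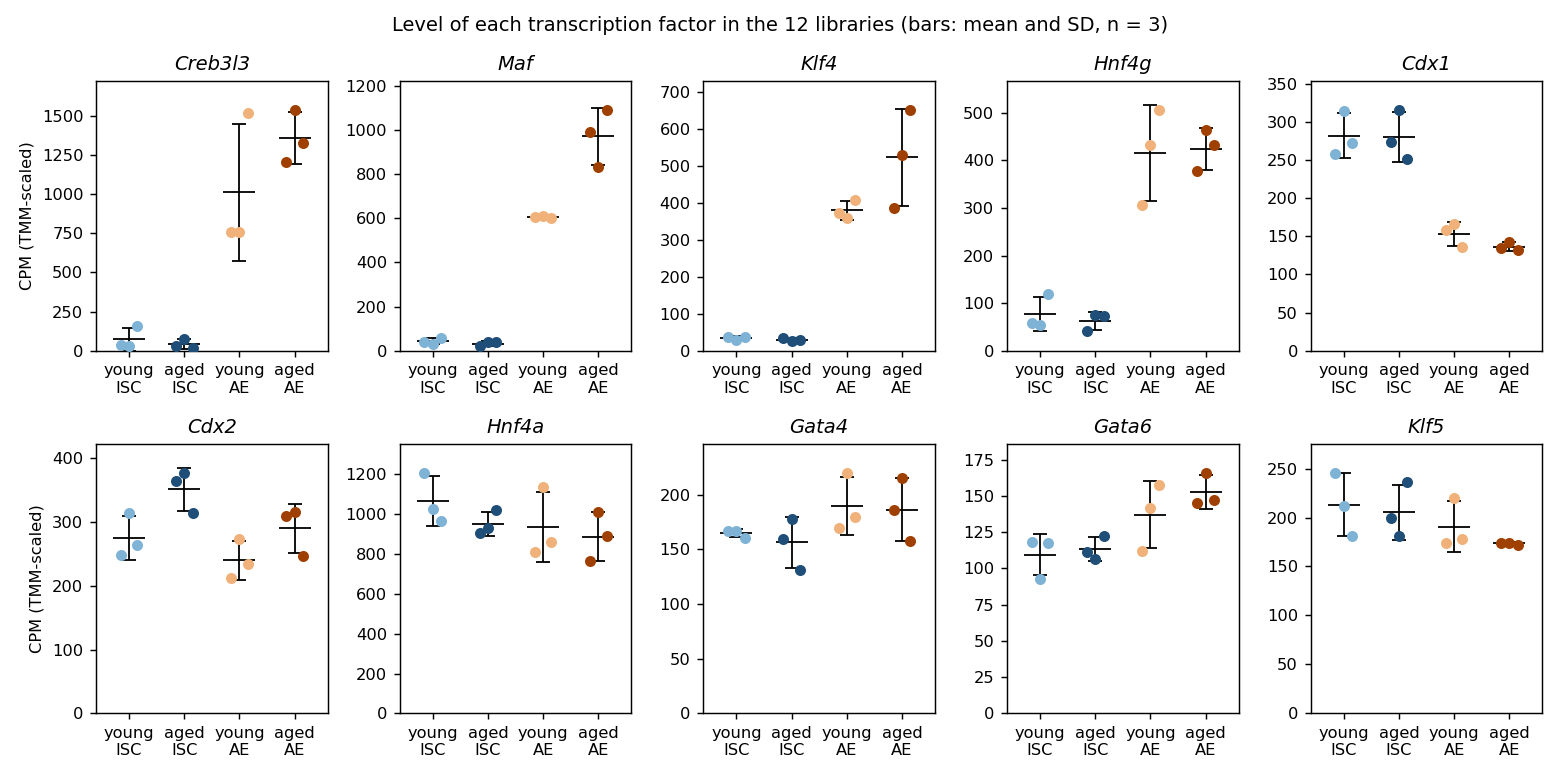
Level of each of the 10 factors in the 12 libraries, in CPM on a linear axis that starts at 0, by cell type and age; points are libraries and bars are the mean and SD of 3. *Creb3l3*, *Maf*, *Klf4* and *Hnf4g* sit far higher in AE than in ISC, *Cdx1* lies lower in AE, and the other 5 factors stay within narrow ranges.

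*Creb3l3* (chr10:81084324-81098874, minus strand, GRCm38) activates apolipoprotein and fatty acid genes in liver and intestine. It was at 35.1, 27.6 and 157 CPM in young ISC and at 759.9, 759.98 and 1517 CPM in young AE. In aged mice it was at 29.4, 77.2 and 20.1 CPM in ISC and at 1206, 1537 and 1325 CPM in AE. No AE library overlapped an ISC library, and the highest young ISC value came from replicate 3, the ISC library with the most enterocyte marker RNA. Replicate 3 also held the highest young AE value. The gene was 13.8-fold higher in AE in young mice (log2 fold change 3.79, SE 0.71, FDR 0.00277) and 30.5-fold higher in aged mice (4.93, SE 0.50, FDR 1.81e-05). Without young ISC replicate 3 the young log2 fold change was 5.01, and without young AE replicate 3 it was 3.31. Without aged ISC replicate 2, the highest of its group, the aged value was 5.70.

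Upstream sequences were available for 4 of the 10 factors. The 250 bases before both starts of *Creb3l3* are shown because this factor had the largest fold change between the cell types in aged mice, beside the start of *Klf4*, which was also higher in AE, and a start inside *Hnf4a*, a factor with similar levels in both cell types. Capitals mark exact matches, on either strand, to the letters searched: TTTATG for CDX factors, AGATAA for the GATA family, CAAAGTC for HNF4 receptors, GTTAAT for HNF1, CACCC for KLF factors, TGACGT for the CRE element and TGCTGA for MAF factors. In RefSeq on GRCm38.p6 the windows lie at chr10:81098873-81099122 (minus strand) for the *Creb3l3* start at the gene's 5′ end, chr10:81092592-81092841 (minus strand) for its start inside the gene, chr4:55532476-55532725 (minus strand) for *Klf4* and chr2:163546905-163547154 (plus strand) for *Hnf4a*.
Creb3l3 outer start: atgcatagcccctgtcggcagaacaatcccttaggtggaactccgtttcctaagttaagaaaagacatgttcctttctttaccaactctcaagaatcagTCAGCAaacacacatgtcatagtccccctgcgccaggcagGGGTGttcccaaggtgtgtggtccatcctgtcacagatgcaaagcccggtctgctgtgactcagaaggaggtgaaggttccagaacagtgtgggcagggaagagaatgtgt
Creb3l3 inner start: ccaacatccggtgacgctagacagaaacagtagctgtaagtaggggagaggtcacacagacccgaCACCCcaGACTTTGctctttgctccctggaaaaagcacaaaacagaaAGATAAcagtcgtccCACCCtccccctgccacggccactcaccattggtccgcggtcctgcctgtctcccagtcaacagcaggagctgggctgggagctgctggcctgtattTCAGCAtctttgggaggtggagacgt
Klf4 start: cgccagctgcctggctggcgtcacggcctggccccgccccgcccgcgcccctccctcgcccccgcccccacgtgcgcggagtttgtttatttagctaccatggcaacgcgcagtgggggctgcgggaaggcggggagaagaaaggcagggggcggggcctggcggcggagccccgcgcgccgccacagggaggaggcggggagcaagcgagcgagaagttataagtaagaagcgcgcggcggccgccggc
Hnf4a inner start: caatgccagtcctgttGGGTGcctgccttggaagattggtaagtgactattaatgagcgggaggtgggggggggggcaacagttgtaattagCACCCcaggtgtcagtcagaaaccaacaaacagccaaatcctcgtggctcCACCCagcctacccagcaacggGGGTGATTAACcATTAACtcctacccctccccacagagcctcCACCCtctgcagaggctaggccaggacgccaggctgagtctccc
The inner window of *Creb3l3* holds an HNF4 match 178 bases before the start, a GATA match at 138, a MAF match at 26 and KLF matches at 185 and 123 bases. The outer window holds a MAF match 151 bases before the start and a KLF match nearer to it. The inner *Hnf4a* window holds HNF1 matches 81 and 74 bases before the start and 5 KLF matches. For the outer *Hnf4a* start, not shown, there is a GATA match 52 bases before it and KLF matches at 83, 73 and 39. The *Cdx2* start, also not shown, has an HNF1 match 30 bases before it and a KLF match at 128. The *Klf4* window holds none of the 7 motifs, which says only that these letters are not in it, and 74% of its upstream bases are G or C. Over 32851 windows, each from 250 bases before to 50 after a start, 4.44% held the HNF4 letters, 11.2% GATA, 7.1% HNF1, 19.5% MAF, 57.5% KLF, 11.9% CDX and 7.51% CRE. These matches describe the letters only, and the counts do not show which start was used.

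*Maf* (chr8:115682942-115707794, minus strand) was at 38.9, 30.2 and 58.3 CPM in young ISC and at 605, 610.5 and 602 CPM in young AE. The aged libraries held 19.9, 39.5 and 38.3 CPM in ISC and 989.55, 833 and 1089.5 CPM in AE. All AE libraries lay above all ISC libraries, and the 3 young AE libraries differed by a coefficient of variation of 0.704%. *Maf* was 14.2-fold higher in AE in young mice (log2 fold change 3.83, SE 0.28, FDR 1.10e-04) and 28.3-fold higher in aged mice (4.82, SE 0.31, FDR 1.25e-06). T cells also express *Maf*: the summed level of 12 T cell markers was between 18.8 and 59.4 CPM in AE, between 11.4 and 25.6 in young ISC and between 4.05 and 6.20 in aged ISC. Among macrophage and other myeloid markers, the sum of 9 was between 14.6 and 37.9 CPM in all 12 libraries. That sum came mostly from *Itgam* and *Cd14*, whereas the macrophage genes *Adgre1*, *Csf1r*, *C1qa*, *C1qb* and *C1qc* were each between 0 and 0.981 CPM in every library. In young mice 1 of 11 T cell markers tested was called higher in AE and 1 lower, beside 27.7% and 25.4% of all genes. In aged mice 8 of 10 were called higher, beside 30% of all genes. Between 5 and 8 of the 12 markers held 3 counts or fewer in each aged ISC library, so these calls compare AE with values near the floor. Of 7 myeloid markers tested in young mice, 3 were called higher in AE and 1 lower. Of 4 tested in aged mice, 0 were called higher and 2 lower, beside 30% and 34.1% of all genes. In each young ISC library 5 of the 9 myeloid markers held 3 counts or fewer. The parts of T cells and of macrophages and other myeloid cells in the level of *Maf* were not tested.

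*Klf4* (chr4:55527143-55532466, minus strand) was at 37.4, 28.3 and 35.8 CPM in young ISC and at 371, 359 and 406 CPM in young AE. At the older age it was at 33.1, 26.2 and 29.6 CPM in ISC and at 387, 529 and 650.3 CPM in AE. The ISC libraries lay close together and far below every AE library. *Klf4* was 11.2-fold higher in AE in young mice (log2 fold change 3.48, SE 0.19, FDR 9.89e-05), and in aged mice the log2 fold change was 4.07 (SE 0.24, FDR 8.40e-07). The 7 markers of goblet cells, in which *Klf4* is known to act, had a median log2 fold change of AE over ISC of 4.17 in young and 4.51 in aged mice, and their part in the level of *Klf4* was not tested.

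*Hnf4g* (chr3:3508030-3658052, plus strand), a paralog of *Hnf4a* that binds the same motif, was at 57.7, 53.8 and 118 CPM in young ISC and at 307, 434 and 506 CPM in young AE. It was at 41.7, 74.1 and 72.1 CPM in aged ISC and at 377, 463 and 432 CPM in aged AE. AE libraries again lay above all ISC libraries, and young ISC replicate 3 was again the highest of the stem cell libraries. Young AE replicate 3 was the highest of the AE libraries. The gene was 5.42-fold higher in AE in young mice (log2 fold change 2.44, SE 0.35, FDR 8.48e-04) and 6.45-fold higher in aged mice (2.69, SE 0.25, FDR 9.87e-06).

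*Cdx1* (chr18:61018862-61036199, minus strand), a Wnt-responsive homeobox gene of the crypt, was at 258, 315 and 272 CPM in young ISC and at 158, 167 and 136 CPM in young AE. In aged mice it was at 274, 316 and 252 CPM in ISC and at 135, 142 and 132 CPM in AE. The cell types did not overlap at either age. *Cdx1* was 1.84-fold lower in AE in young mice (log2 fold change -0.88, SE 0.17, FDR 0.00322) and 2.16-fold lower in aged mice (-1.11, SE 0.17, FDR 2.37e-04).

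The other 5 factors were not called between cell types at either age. *Hnf4a* (chr2:163506808-163572910, plus strand), the nuclear receptor that is known to be needed for mature enterocytes, was at 1209, 1027 and 965 CPM in young ISC and at 808, 1135 and 861 CPM in young AE. It was at 907, 929.8 and 1019 CPM in aged ISC and at 763, 1009 and 890.4 CPM in aged AE. The cell types overlapped at both ages, with log2 fold changes of -0.19 (SE 0.23, FDR 0.499) in young and -0.17 (SE 0.20, FDR 0.488) in aged mice. The opposite-strand gene *Hnf4aos*, which overlaps it, held 1420 counts, 0.569% of the count of *Hnf4a*.

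*Cdx2* (chr5:147300805-147307270, minus strand), the homeobox factor that sets intestinal identity, was at 248, 313 and 264 CPM in young ISC and at 212, 273 and 234 CPM in young AE. Aged libraries had it at 363, 377 and 313 CPM in ISC and at 309, 315 and 246 CPM in AE. The cell types overlapped at both ages, with log2 fold changes of -0.20 (SE 0.18, FDR 0.378) and -0.35 (SE 0.18, FDR 0.125). With the library code as a replicate block, *Cdx2* was called lower in aged AE (-0.35, FDR 0.0484).

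*Gata4* (chr14:63198922-63271692, minus strand), which is known to keep the proximal small intestine from an ileal state, was at 166, 167 and 160.4 CPM in young ISC and at 169.8, 220.2 and 179 CPM in young AE. In aged mice it was at 159.6, 178 and 131 CPM in ISC and at 186, 215 and 158 CPM in AE. The young groups lay just apart and the aged groups overlapped, and the log2 fold changes were 0.20 (SE 0.16, FDR 0.316) and 0.18 (SE 0.19, FDR 0.418). Without young AE replicate 2 the young value was -0.01.

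*Gata6* (chr18:11052510-11085635 in the count table, plus strand), the GATA factor that is also found in the crypt, was at 118, 92.9 and 117 CPM in young ISC and at 112, 142 and 158 CPM in young AE. Aged libraries had it at 112, 106 and 122 CPM in ISC and at 145, 166 and 147 CPM in AE, without overlap. The log2 fold changes were 0.32 (SE 0.18, FDR 0.170) and 0.36 (SE 0.15, FDR 0.0615). In aged mice it was called higher in AE with the replicate block (0.36, FDR 0.0432), with DESeq2 (0.44, FDR 0.00671), with RLE scaling (0.44, FDR 0.0246), with filterByExpr (0.39, FDR 0.0323), with all 4 groups in 1 fit (0.44, FDR 0.0262) and without aged ISC replicate 3 (0.40, FDR 0.0431). A gene on the opposite strand, *1010001N08Rik*, overlaps it and held 3791 counts over the 12 libraries, 10.8% of the count of *Gata6*, and whether the counting used strand is not stated.

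*Klf5* (chr14:99298691-99313405 in the count table, plus strand) was at 246, 211 and 182 CPM in young ISC and at 174, 220.3 and 178 CPM in young AE. At the older age it was at 199, 181 and 236 CPM in ISC and at 174, 174 and 172 CPM in AE, with no overlap. The log2 fold changes were -0.16 (SE 0.19, FDR 0.488) and -0.31 (SE 0.16, FDR 0.113), and with upper-quartile scaling *Klf5* was called lower in aged AE (-0.40, FDR 0.0438).

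**Figure D2:**
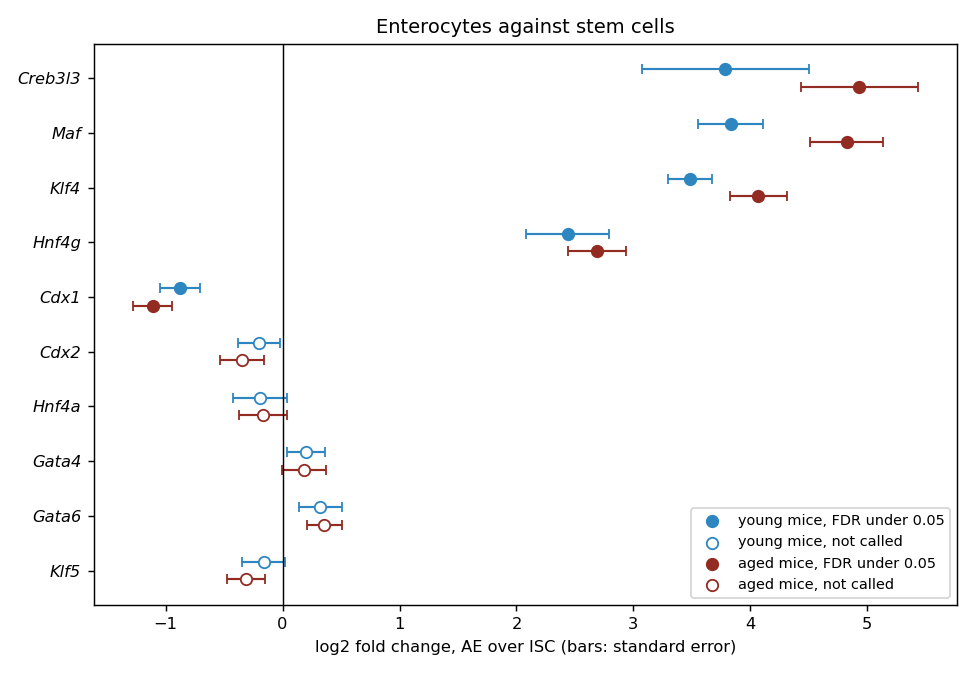
Log2 fold change of AE over ISC for each factor in young and aged mice, with standard errors; filled points were called and open points were not. The 4 factors called higher lie between 2.44 and 4.93 and *Cdx1* at -0.88 and -1.11, and the other 5 lie between -0.35 and 0.36.

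The direction of *Gata4* and *Gata6*, and the calls of the 5 factors other than those called at both ages, depend on how the libraries are scaled. TMM factors were between 1.26 and 1.36 in ISC and between 0.72 and 0.82 in AE, so that scaling by library totals alone, an alternative chosen after seeing the data, lowers the median log2 fold change of all genes in young mice from 0.15 to -0.55, and in aged mice from -0.13 to -0.91. The split of calls over all genes then changes from 4623 higher and 4241 lower to 2568 higher and 7137 lower in young mice, and from 4754 and 5407 to 2711 and 8470 in aged mice. Under it the same 4 factors were called higher at both ages. *Hnf4a*, *Cdx1*, *Cdx2*, *Gata4* and *Klf5* were called lower at both ages, and *Gata6* in aged mice as well. *Gata4* turned to -0.50 and -0.60 and *Gata6* to -0.38 and -0.43 in young and aged mice. Relative to the median of all genes under library totals, which is itself negative, *Gata4* and *Gata6* thus still lay above it.

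**Figure D3:**
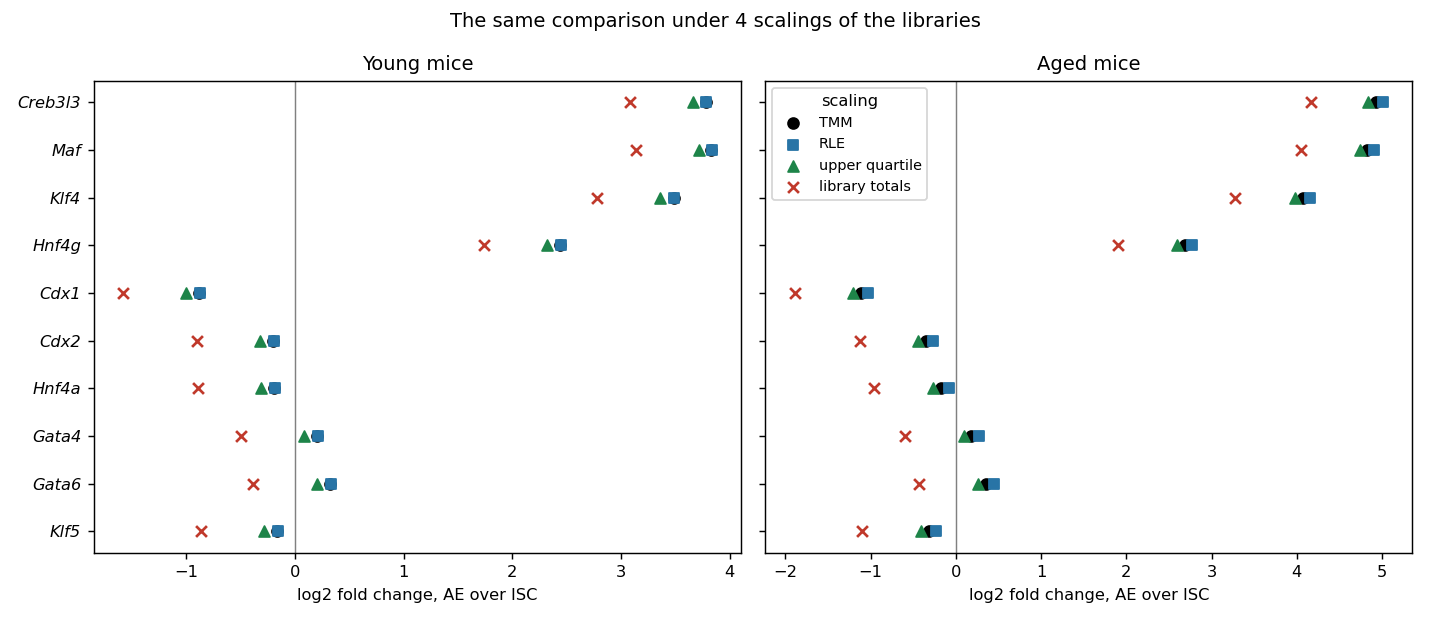
Log2 fold change of AE over ISC for each factor under TMM, RLE, upper-quartile and library total scaling, in young mice (left) and aged mice (right). The 4 factors called higher stay above 1.7 under each scaling, whereas *Gata4* and *Gata6* fall below 0 under library totals.

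Levels of different genes were compared only as RPKM, which divides CPM by the exon length of the gene in kilobases. In ISC *Hnf4a* had the highest level of the 10, 221 ± 26.3 RPKM in young and 197 ± 12.3 in aged mice (SD, n = 3). *Cdx1* followed at 161 ± 16.7 and 160.2 ± 18.5 RPKM, and *Cdx2* at 122 ± 15.1 and 155 ± 14.9, the ranges of *Cdx1* and *Cdx2* overlapping in aged but not in young ISC. *Gata4* (42.2 and 40.04 RPKM) and *Klf5* (40.9 and 39.5) overlapped each other below them. *Hnf4g*, *Creb3l3* and *Gata6* overlapped in turn, with means between 14.0 and 29.1 RPKM, and in young ISC *Hnf4g* and *Creb3l3* also overlapped *Gata4* and *Klf5*. *Klf4* (11.1 and 9.72 RPKM) and *Maf* (5.16 and 3.96) had the lowest means, but the range of *Creb3l3* overlapped that of *Klf4* at both ages, and *Maf* overlapped none.

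In AE the order was another. *Creb3l3* had the highest level, 336 ± 145 RPKM in young and 449.6 ± 55.5 in aged mice, and did not overlap the next. *Hnf4a* was second at 194 ± 36.4 and 184 ± 25.4 RPKM, with ranges that overlapped those of the next factor, *Hnf4g* in young AE (158 ± 38.4) and *Klf4* in aged AE (171 ± 43.3). *Maf*, last of the 10 in ISC, was at 73.5 ± 0.518 RPKM in young AE and 118 ± 15.7 in aged AE. *Gata4*, *Klf5* and *Gata6* took the 3 lowest places in AE, in that order and without overlap. The summed RPKM of the 10 factors was between 639.8 and 703.5 in the 6 ISC libraries and between 1009 and 1504 in the 6 AE libraries.

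Since 8 of the factors form 4 pairs of close relatives, the ratio of each pair within a library was also compared, an analysis that was added after the levels had been seen and that library scaling cannot move. *Hnf4g* over *Hnf4a* was 0.136 ± 0.0769 in young ISC and 0.120 ± 0.0321 in aged ISC, and 0.826 ± 0.220 in young AE and 0.880 ± 0.0334 in aged AE (ratio of RPKM, SD, n = 3). *Klf4* over *Klf5* was 0.275 ± 0.0554 and 0.248 ± 0.0347 in ISC, and 3.44 ± 0.583 and 5.14 ± 1.34 in AE, so that the more abundant member of the pair was *Klf5* in ISC and *Klf4* in AE. *Gata6* over *Gata4* was between 0.399 and 0.496 on average in the 4 groups, which overlapped in every comparison.

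*Cdx1* over *Cdx2* was the pair in which all 4 groups stood apart. The ratio was 1.35, 1.30 and 1.33 in young ISC, 0.973, 1.08 and 1.04 in aged ISC, 0.963, 0.789 and 0.750 in young AE and 0.565, 0.583 and 0.692 in aged AE. It was thus lower in aged than in young libraries in each cell type, by 0.37 in ISC and 0.44 in AE on the log2 scale, and lower in AE than in ISC at each age, by 0.68 and 0.75. The 4 comparisons share groups, so they are not independent of each other. Each had an exact permutation p of 0.1 (two-sided), the smallest that 3 against 3 libraries allow, and 0.2 after Benjamini-Hochberg adjustment over 16 tests of pairs. Of the 4 pairs, *Cdx1* over *Cdx2* was the one whose young and aged libraries did not overlap. The age groups did not overlap for 8.84% of single genes in ISC and 10.9% in AE, and the share for ratios was not computed. By age *Cdx1* was at 0.00 and *Cdx2* at 0.36 on the log2 scale in ISC, and at -0.15 and 0.29 in AE. In ISC the ratio thus restates the change of *Cdx2* given below.

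**Figure D4:**
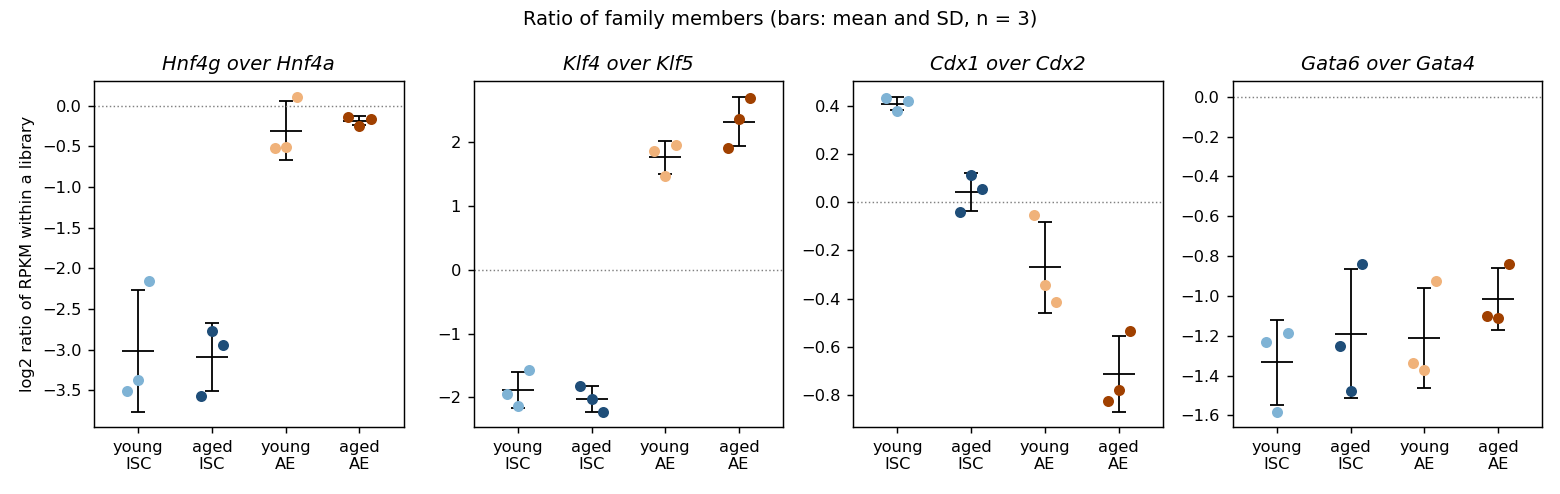
Log2 ratio of RPKM within each library for 4 pairs of related factors, by cell type and age; points are libraries and bars the mean and SD of 3. *Hnf4g* over *Hnf4a* and *Klf4* over *Klf5* separate AE from ISC, *Cdx1* over *Cdx2* steps down over the 4 groups, and *Gata6* over *Gata4* overlaps in all.

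The second question was whether age changes these factors. With edgeR's quasi-likelihood test none of the 10 was called in ISC, where 0% of 15552 genes tested were called, 695 had an unadjusted p under 0.05 and DESeq2 called 58. None was called in AE, where 0% of 16265 genes were called, 809 had an unadjusted p under 0.05 and DESeq2 called 18. An unadjusted p under 0.05 was found for 0 of the 10 factors in ISC and for 2 in AE. The lowest p among the factors was that of *Maf* in AE. Its aged AE libraries, at 833 CPM and above, all lay over its young ones, at 610.5 CPM and below. The log2 fold change was 0.70 (SE 0.17, FDR 0.833 in edgeR). DESeq2 called it, at 0.70 with an FDR of 0.0230, and leaving out single libraries gave 0.61 to 0.79 with FDRs from 0.238 to 0.99971 in edgeR. T cell markers summed to 57.1, 25.0 and 18.8 CPM in young AE and 59.4, 31.1 and 21.03 CPM in aged AE, which overlapped. Of the markers below, 0 were called by age in AE. Of the enterocyte markers 12 of 12 had positive log2 fold changes (median 0.295), whereas 6 of 7 stem cell markers (median -1.27), 8 of 8 proliferation markers (median -1.47) and 6 of 6 Paneth cell markers (median -1.23) had negative ones, beside a median of -0.04 over all genes tested. The highest stem cell, proliferation and Paneth cell sums in AE were those of young AE replicate 2, without which *Maf* was at 0.71 and *Klf4* at 0.45.

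*Klf4* in AE followed, with a log2 fold change of 0.48 (SE 0.21, FDR 0.833) and overlapping groups, since aged AE replicate 1 at 387 CPM was below young AE replicate 3 at 406. Without aged AE replicate 3 the value for *Klf4* was 0.30, and without aged AE replicate 1 it was 0.66. In ISC the lowest p was that of *Cdx2*, whose aged libraries lay narrowly above its young ones, 313.13 against 313.05 CPM at the nearest (log2 fold change 0.36, SE 0.16, FDR 0.99995). *Cdx2* in ISC and *Maf* in AE were thus the 2 cases, 1 of 10 factors in each cell type, in which the age groups did not overlap, against the 8.84% and 10.9% of all genes given above. The other log2 fold changes by age were between -0.79 and 0.06 in ISC and between -0.15 and 0.44 in AE.

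In ISC the age values of *Creb3l3* and *Hnf4g* moved strongly with single libraries and changed sign without young ISC replicate 3. *Creb3l3* was at -0.79 (SE 0.70) and *Hnf4g* at -0.28 (SE 0.33) with all libraries, and without young ISC replicate 3 they were at 0.44 and 0.18. *Maf* went from -0.38 (SE 0.31) to -0.08 without that library. The same library had the most RNA of enterocyte markers among ISC, and all 12 enterocyte markers had negative log2 fold changes by age in ISC, with 0 called. Among aged ISC, replicate 2 had the most, 4440 CPM. Without aged ISC replicate 2 the values moved the other way, to -1.56 for *Creb3l3*, -0.43 for *Hnf4g* and -0.54 for *Maf*. The part of these markers in the values of the 3 factors was not tested.

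**Figure D5:**
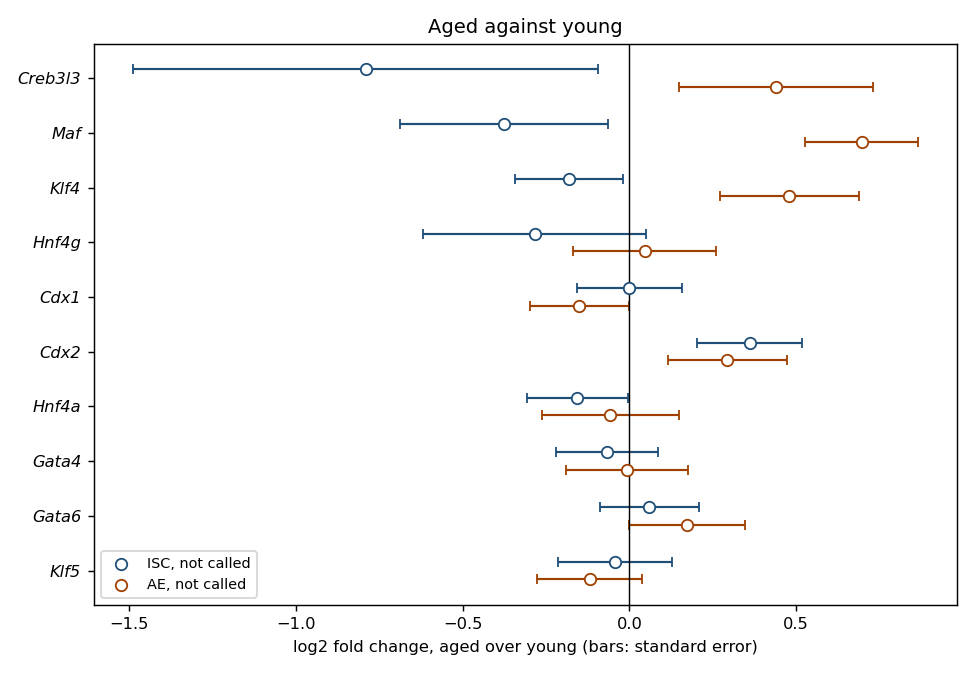
Log2 fold change of aged over young for each factor in ISC and in AE, with standard errors; all points are open because none was called. *Maf* in AE lies at 0.70 and *Cdx2* in ISC at 0.36, and *Creb3l3* in ISC at -0.79 has the widest error, 0.70.

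Whether age acted differently in the 2 cell types was tested over all 12 libraries, where 0.00575% of 17377 genes were called (1 gene, *Adora2b*), 757 had an unadjusted p under 0.05 and DESeq2 called 43. None of the 10 factors was called. *Maf* had the lowest p, with a difference of 1.07 on the log2 scale between its change in AE and in ISC (SE 0.39, FDR 0.99995). This was 0.77 without young ISC replicate 3 and 1.26 without young ISC replicate 2. *Klf4* followed at 0.65 (SE 0.28, FDR 0.99995), which was 0.42 without aged AE replicate 3. *Creb3l3* had a difference of 1.22 (SE 0.86, FDR 0.99995), which was -0.01 without young ISC replicate 3 and 1.99 without aged ISC replicate 2. Such differences were not particular to the factors. They were positive for 12 of 12 enterocyte markers (median 1.56) and 11 of 11 T cell markers tested (median 3.47). For 7 of 7 stem cell markers they were negative (median -1.39). Of these markers 0 were called, and their part in the values of the factors was not tested.

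Relatives and partners of the 10 factors were read from lists in the same fits, and each count of calls stands beside the shares over all genes, 27.7% higher and 25.4% lower in young mice and 30% higher and 34.1% lower in aged mice. Of 21 relatives from the GATA, CDX, KLF, MAF and CREB3 families, 18 were tested at each age, of which 11 were called higher in AE and 0 lower, in young and in aged mice. *Creb3l2*, a relative of *Creb3l3*, had a log2 fold change of 4.17 (SE 0.21, FDR 4.52e-07) in aged mice. *Gata5* was also called higher, at 0.99 (FDR 0.00260) in young and 1.32 (FDR 1.68e-04) in aged mice. *Cdx4* had no counts in any library.

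Of 20 other factors of absorptive cells, 8 were called higher and 2 lower in AE in young mice, and 9 higher and 7 lower in aged mice. Beside 30% and 34.1% of all genes called higher and lower in aged mice, the aged counts say little about the list. *Prdm1*, known for the switch from fetal to adult epithelium, and *Nr1i3*, a xenobiotic receptor, had log2 fold changes of 4.37 (SE 0.33, FDR 3.13e-06) and 3.00 (SE 0.26, FDR 5.68e-06) in aged mice. *Hes1*, the Notch target that favours absorptive fate in the crypt, and *Nr5a2*, a nuclear receptor of the crypt, had log2 fold changes of -2.63 (SE 0.18, FDR 1.81e-06) and -1.26 (SE 0.19, FDR 2.71e-04).

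Among 14 factors of crypt and stem cells, 10 in young and 11 in aged mice were called lower in AE and 3 higher at each age. *Ascl2*, a master factor of *Lgr5* stem cells, was at -7.06 (SE 0.39, FDR 6.10e-07) and *Myc* at -5.30 (SE 0.21, FDR 3.24e-07) in aged mice. The members called higher were *Id1*, *Id3* and *Tcf7l2*, the last at 0.97 (SE 0.17, FDR 7.68e-04) in aged mice. Of 15 secretory factors, 5 were called higher and 1 lower in AE in young mice, and 5 higher and 3 lower in aged mice. The counts called higher lie near the 27.7% and 30% of all genes called higher, so they say little about the list. Single members called in aged mice were *Neurod1* at 2.51 (SE 0.29, FDR 4.09e-05) and *Atoh1* at 1.90 (SE 0.27, FDR 1.77e-04). *Nkx2-2* was at -1.56 (SE 0.42, FDR 0.00828), and *Neurog3*, the endocrine progenitor factor, was between 9.96 and 37.3 CPM in aged ISC and between 0 and 0.218 CPM in aged AE.

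Of the enterocyte genes that these factors are known to act on, 18 of 18 were called higher in AE at both ages, beside 27.7% and 30% of all genes, with median log2 fold changes of 3.72 in young and 4.83 in aged mice. Most of these genes, *Apoa4* included, are also among the enterocyte markers used above to describe the sorted cells. Their higher level in AE thus restates the cell type and is not separate evidence about the factors. *Apoa4*, an apolipoprotein and known target of HNF4 and CREB3L3, was at 7.16 (SE 0.72, FDR 1.69e-05) and *Apoc2* at 7.04 (SE 0.46, FDR 1.32e-06) in aged mice. All 4 genes of ileal bile acid handling, which GATA4 is known to repress, were called higher in AE as well, *Slc10a2* by 5.63 (SE 0.80, FDR 1.69e-04) and *Fabp6* by 4.73 (SE 0.60, FDR 8.17e-05) in aged mice. By age 0 genes of these lists were called in either cell type with edgeR. At an unadjusted p under 0.05, 7 of 18 enterocyte genes were found in ISC and 1 in AE, and 0 of 4 ileal genes in ISC and 1 in AE. Over all genes tested, 695 of 15552 in ISC and 809 of 16265 in AE had such a p. The genes of a list were read in the same libraries, so they are not independent of each other. The age values of the enterocyte genes were negative for 17 of 18 in ISC (median -0.94) and positive for 18 of 18 in AE (median 0.32), and those of the ileal genes were negative for 4 of 4 in ISC (median -0.93) and positive for 4 of 4 in AE (median 0.49). The medians over all genes tested were 0.01 in ISC and -0.04 in AE. Young ISC replicate 3, the ISC library with the most enterocyte marker RNA, is part of the ISC values, and its part in them was not tested.

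The genes whose log2 CPM followed each factor most closely over the 12 libraries were ranked by Pearson's r among 13473 genes, as a description, since the libraries share their cell type and age. For the 4 factors called higher in AE the nearest genes were *Ces2e* for *Creb3l3* (r = 0.998), *Adap1* for *Maf* (r = 0.997), *Lgals8* for *Klf4* (r = 0.998) and *Lrrc19* for *Hnf4g* (r = 0.997). *Fabp2*, the intestinal fatty acid binding protein, and *Fam213a* came next for *Creb3l3*, *Trim30d* and *Ptprh* for *Maf*, *Tpcn1* and *Sowahb* for *Klf4*, and *Sowaha* and *Chp2* for *Hnf4g*. *Polr3k* (r = 0.996), *Thyn1* and *Esf1* were nearest to *Cdx1*. The values were lower for factors that differ little between cell types: *Mtus2* for *Cdx2* (r = 0.942, then *Ddr2* and *Mettl21a*), *Hs6st1* for *Hnf4a* (r = 0.882, then *Eif4g1* and *Spin1*), *Oxsm* for *Gata4* (r = 0.906, then *Sdha* and *Meis2*), *Rbl2* for *Gata6* (r = 0.960, then *Hace1* and *Chmp4c*) and *Arih1* for *Klf5* (r = 0.951, then *Nf2* and *Eya3*).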

How the data were processed

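The 10 factors and all gene lists were chosen with earlier results of these data known. Per the labels and the study's methods, poly(A) RNA of sorted cells was made into libraries with a directional kit and 14 cycles of PCR. The authors trimmed reads with Trim Galore 0.4.4, mapped them to GRCm38 with HISAT2 2.1.0 and counted uniquely mapped reads per gene over exons of merged transcripts in SeqMonk; the annotation release is not stated. They deposited raw counts, and also a table of their own comparisons (expression, fold changes and FDR of differential genes), which was not used.

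The tools were edgeR 4.0.16, DESeq2 1.42.0 and limma 3.58.1 under R 4.3.3. A gene entered a comparison when its counts there summed to 10 or more. After TMM scaling, 2 groups at a time were compared by edgeR's quasi-likelihood test, with an FDR threshold of 0.05 over all genes tested; the difference of age effects used all 12 libraries. The SE beside an edgeR value was derived from the test, as the absolute log2 fold change divided by the square root of its F statistic. The script was tested on simulated data. Exon lengths for RPKM and gene positions came from GENCODE M21 (GRCm38), whose coordinates equalled those of the table except at the start of *Gata6* and the end of *Klf5*; exon lengths are those of GENCODE. The named genes are the 10 factors, the 3 genes nearest to each by correlation of log2 CPM (prior count 2) and, per list, the 2 largest rises and falls called in aged mice; *Gata5*, *Id1*, *Cdx4* and *Adora2b* were added after their values were seen. A gene that the rule also named is not reported here.

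Columns carry codes that ISC and AE of an age share. Deviations from the group means correlated between ISC and AE of 1 code (r from 0.192 to 0.397 in 6 pairs, against -0.316 to 0.0826 in 12 pairs of other codes), so an alternative fit took the code as replicate block. The labels do not tie a code to a mouse. The study's methods list the ages of 3 aged and 3 young mice for sequencing, fewer than the libraries of each age. ISC and AE of an age thus appear to come from the same mice, but the main fits treated libraries as unpaired. Their p-values measure the spread between libraries. Replicates of a group differed by more than sampling noise. The alternatives were DESeq2, RLE, upper-quartile and library total scaling, other filters, all 4 groups in 1 fit, the block and leaving out each library.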

Additional observations from a re-analysis of the deposited data

How the results depend on the processing

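Between cell types, the calls of *Creb3l3*, *Maf*, *Klf4*, *Hnf4g* and *Cdx1* held at both ages under each alternative run. Library totals alone turned *Gata4* to -0.50 (young) and -0.60 (aged) and *Gata6* to -0.38 and -0.43, and without 1 library *Gata4* in young mice ranged from -0.0108 to 0.25. The replicate block changed the calls of *Gata6* and *Cdx2* in aged mice, given above, and of no other factor. The count of genes called by age in ISC, 0, became 58 with DESeq2, 1 with no filter, 1 with all 4 groups in 1 fit and 0 to 1 without 1 library. In AE the count of 0 became 18 with DESeq2, 2 with no filter and 0 to 1 without 1 library. For the difference of age effects the count of 1 became 43 with DESeq2, 0 with library totals, 21 with the replicate block and 0 to 3 without 1 library. Small uncalled values by age changed sign: in ISC *Cdx1* (0.00) was at 0.0138 with upper-quartile scaling, 0.0013 with no filter, 0.0024 with filterByExpr and 0.0276 with library totals. With library totals *Hnf4g* in AE was at -0.0787, and the differences of age effects of *Hnf4a*, *Gata4* and *Gata6* at -0.0675, -0.1001 and -0.0469. Without 1 library the values in ISC ranged from -0.15 to 0.0671 for *Klf5*, -0.0983 to 0.0885 for *Cdx1*, -0.043 to 0.12 for *Gata6*, -0.48 to 0.18 for *Hnf4g*, -1.56 to 0.44 for *Creb3l3* and -0.17 to 0.0493 for *Gata4*. In AE they ranged from -0.13 to 0.22 for *Hnf4g*, -0.17 to 0.12 for *Hnf4a*, -0.13 to 0.12 for *Gata4* and -0.18 to 0.0082 for *Klf5*. Differences of age effects ranged from -0.0968 to 0.22 for *Hnf4a*, -0.14 to 0.52 for *Hnf4g*, -0.24 to 0.0277 for *Klf5*, -0.0051 to 1.99 for *Creb3l3*, -0.14 to 0.15 for *Gata4* and -0.12 to 0.21 for *Gata6*. The cause of these changes was not tested. The lowest total over the 12 libraries was that of *Gata6*, 35233 counts, of which 13140 came from young AE replicate 3. In a single library the lowest count was 453, for *Creb3l3* in aged ISC replicate 3. The standard errors by age were between 0.15 and 0.70 with 3 libraries a group.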
